A study of Rattus norvegicus with 2 samples.

Results

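A set of 10 smooth muscle contractile and actin-binding genes was compared between untransfected and Pdx1 plus Ngn3 transfected rat bone marrow mesenchymal stem cells. They are Acta2, Tagln, Cnn1, Myl9, Mylk, Flna, Pgm5, Synpo2, Ablim3 and Mybpc1, taken by symbol from the deposited table, in which each of the 10 has 1 row among 2325. The genes were picked from a table that lists only genes changed between these same 2 libraries, so their ratios are given as a description, with no test. Of the 10, 7 were lower and 3 were higher in the transfected library.

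The table compares 2 libraries of messenger RNA from the plastic-adherent stromal cells of Sprague-Dawley rat bone marrow, both at passage 3 to 5. The control library came from cells that received no transfection. The other came from cells 10 days after they were co-transfected with Pdx1 and Ngn3, transcription factors of the developing pancreas and its endocrine cells. The vector and promoter that carried the 2 genes, the number of animals, and how long the control cells were cultured are not stated in the labels, and the act of transfection cannot be told apart from the introduced genes. Library totals implied by the table were 7800831 reads (untransfected) and 7415094 reads (transfected). There was 1 library per condition, so no difference has a replicate check, and every interval below is a 95% interval for counting error only. In bulk RNA, fewer cells of one kind and less RNA per cell cannot be told apart. Of 16 markers of mesenchymal stem cells, 8 were in the table. In the transfected library 5 were higher and 3 lower, against 63.5% higher over all rows. Thy1 (CD90), one of the lower ones, was at 1101 RPKM in the untransfected and 322 RPKM in the transfected library. RPKM is reads scaled by cDNA length in kilobases and by library total, a scale on which genes of different length can be set side by side. Eng, Nt5e and Cd44 were not analysed here.

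In smooth muscle, thick filaments of myosin pull on thin filaments of actin. Calcium and calmodulin switch on the myosin light chain kinase Mylk, which phosphorylates the regulatory light chain Myl9 and so lets myosin engage actin, while transgelin and calponin lie along the actin filament. Cultured marrow stromal cells spread on plastic and build stress fibres from many of these same proteins. Many of the genes are known targets of serum response factor (SRF), which binds a promoter element called the CArG box together with the coactivators myocardin or MRTF.

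A row counted as higher or lower when the ratio of reads per library total was at least 2-fold and its exact interval excluded 1. By that rule 63.5% of all rows were higher and 36.5% lower. Every row met the rule, because the authors had already cut the table at 2-fold, so a call gives only the direction. The 10 genes stood at 3 higher and 7 lower, a split from which nothing is read because the same contrast chose them. Their median log2 ratio (transfected over untransfected) was -1.48, against 1.24 over all rows, with a library at 0 reads set to 3 reads. At a limit of 10-fold, met by 9.33% of all rows on the higher and 3.74% on the lower side, 3 of the 10 were higher and 3 lower.

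Within the set, the thin filament genes Tagln and Acta2 had the highest levels in RPKM in both libraries. Tagln, which encodes the actin-binding protein transgelin, had 73725 reads in untransfected and 23487 reads in transfected cells. Its level went from 6522 RPKM, the highest of any row in the untransfected library, to 2186 RPKM, the second highest of any row in the transfected library. Tagln was therefore 2.98-fold lower (interval 2.94 to 3.03) and still among the most abundant listed transcripts.

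Acta2, smooth muscle alpha-actin, had 53985 and 14330 reads, or 4648 and 1298 RPKM. It ranked 2 among the 2325 untransfected levels and 9 among the transfected ones, and was 3.58-fold lower (3.52 to 3.65). The actins are nearly identical in sequence and no label says how reads that match several genes were assigned, so the Acta2 count is uncertain. The cDNA named in its description has 1425 bases and the length column 1489. With the former the levels would be 4856 and 1356 RPKM and the ratio would not change.

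Cnn1, basic calponin, a thin filament protein that inhibits actomyosin, went from 8864 to 573 reads. Its level was 778 RPKM (762 to 794) in untransfected and 52.9 RPKM (48.6 to 57.4) in transfected cells, a 14.7-fold difference (13.5 to 16.0). In the order of levels it moved from rank 19 to rank 321. The ratio of Cnn1 was 4.93-fold further from 1 than that of Tagln (4.52 to 5.37), whereas Acta2 and Tagln differed by 1.20-fold (1.17 to 1.23). These are among 10 pairs of genes compared in this way, chosen with their values known. The thin filament genes were thus all lower, and calponin by a larger factor than transgelin or actin.

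**Figure D1:**
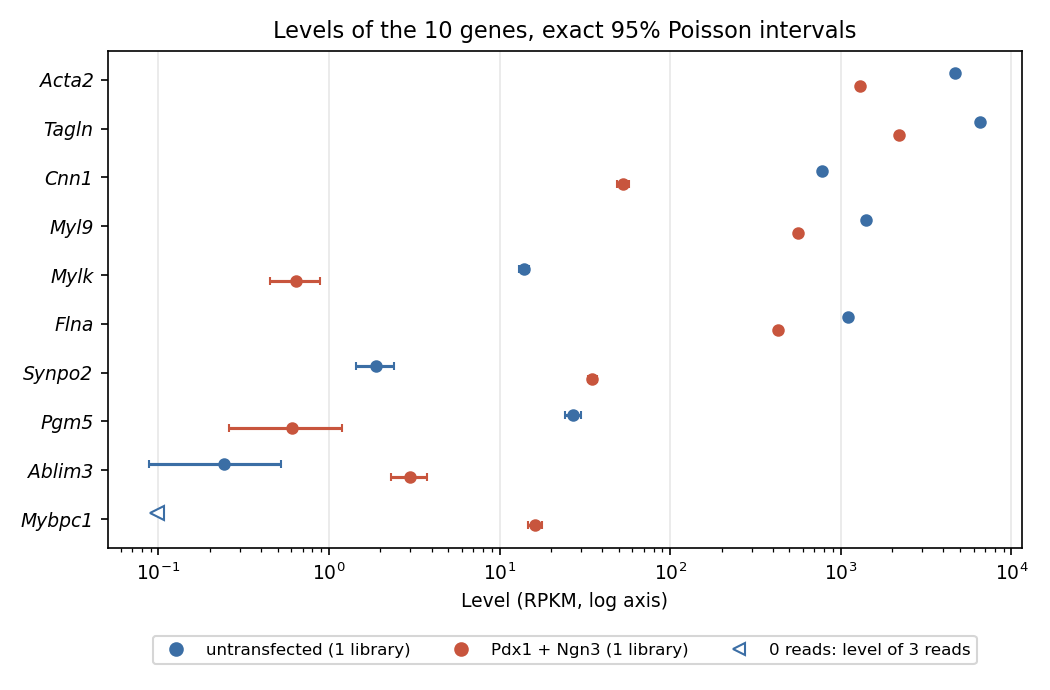
Levels of the 10 genes in RPKM on a log axis, with blue for the untransfected and red for the transfected library; bars are exact 95% Poisson intervals. Tagln, Acta2, Myl9 and Flna stayed above 426 RPKM in both libraries, Mylk and Pgm5 dropped below 1 RPKM, and the open triangle for Mybpc1 marks the level of 3 reads in a library that had 0.

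On the myosin side, the members Myl9 and Mylk were lower. Myl9, the regulatory light chain of smooth muscle and stress fibre myosin, had 12280 and 4689 reads. Its level of 1398 RPKM in untransfected cells stood against 562 RPKM after transfection, a 2.49-fold difference (2.41 to 2.58) and the smallest of the 10. Mylk, the kinase that phosphorylates this light chain, had 847 and 37 reads.

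Mylk was at 14.0 RPKM (13.1 to 15.0) in untransfected cells and at 0.643 RPKM (0.453 to 0.886) in transfected cells. That is a 21.8-fold difference (15.7 to 31.1), 8.74 times that of Myl9 (6.28 to 12.2). Per kilobase, Myl9 RNA was 100 times as abundant as Mylk RNA in untransfected cells and 874 times as abundant in transfected cells. The latter value rests on 37 Mylk reads, and neither says how much protein was present. Between them, Myl9 RNA remained abundant and Mylk RNA was near the lower end of the table in transfected cells, at rank 2204 of 2325.

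Flna and Pgm5 were lower among the actin crosslinkers and adhesion proteins. Flna encodes filamin A, a long dimer that crosslinks actin filaments and ties them to integrins. It had 72522 and 26580 reads, at 1105 and 426 RPKM, and was 2.59-fold lower (2.56 to 2.63). Its ratio lay within 1.04-fold of that of Myl9 (1.00 to 1.08). Pgm5, also called aciculin, is a relative of phosphoglucomutase found at muscle adherens junctions, where it binds dystrophin and utrophin. It had 376 reads in untransfected and 8 reads in transfected cells.

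The level of Pgm5 was 27.0 RPKM (24.3 to 29.9) against 0.604 RPKM (0.261 to 1.19). This 44.7-fold difference (22.4 to 104) was the largest of the 7 lower genes, but with 8 transfected reads its interval overlaps that of Mylk. The interval of the quotient of the Pgm5 and Mylk ratios ran from 0.194 to 1.08.

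Among the lower genes, then, Tagln, Acta2, Myl9 and Flna lay between 2.49-fold and 3.58-fold, and Cnn1, Mylk and Pgm5 between 14.7-fold and 44.7-fold, with none between. The former 4 held 2.72% of all untransfected reads and 0.932% of all transfected reads. The latter 3 held 0.129% and 0.00833%. Tagln, Flna and Acta2 alone made up 90.0% of the reads of the 7 lower genes in untransfected and 92.4% in transfected cells. At a limit of 3-fold in place of 2-fold, Tagln, Myl9 and Flna would not be counted, which leaves 4 lower genes.

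Synpo2, Ablim3 and Mybpc1 were higher. Synpo2, synaptopodin 2 or myopodin, is an actin-binding protein of the muscle Z-disc and of stress fibres. It had 60 reads in untransfected and 1058 reads in transfected cells. Its level was 1.88 RPKM (1.43 to 2.42) against 34.9 RPKM (32.8 to 37.0), an 18.6-fold difference (14.3 to 24.5). Ablim3, an actin-binding protein with LIM domains, had 6 and 70 reads.

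Ablim3 was at 0.242 RPKM (0.0887 to 0.526) in untransfected and 2.96 RPKM (2.31 to 3.75) in transfected cells. It was 12.3-fold higher, with a wide interval of 5.36 to 34.6 that reflects its 6 untransfected reads. Mybpc1 encodes the slow skeletal form of myosin binding protein C, which sits on the thick filaments of striated muscle. It had 0 reads in untransfected cells, with an exact upper limit of 0.121 RPKM, and 466 reads in transfected cells. In the untransfected library 3 reads would be 0.0986 RPKM.

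Mybpc1 reached 16.1 RPKM (14.7 to 17.6). It was 163-fold higher with the untransfected library set to 3 reads, and its exact lower limit was 132. The authors' deposited table gives it a log2 ratio of 13.98, which rests on 0.001 RPKM written in place of 0. None of the 3 higher genes came near the abundant lower ones. Together they held 0.0215% of the transfected reads, and their highest level, 34.9 RPKM, was below the 52.9 RPKM that Cnn1 kept.

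**Figure D2:**
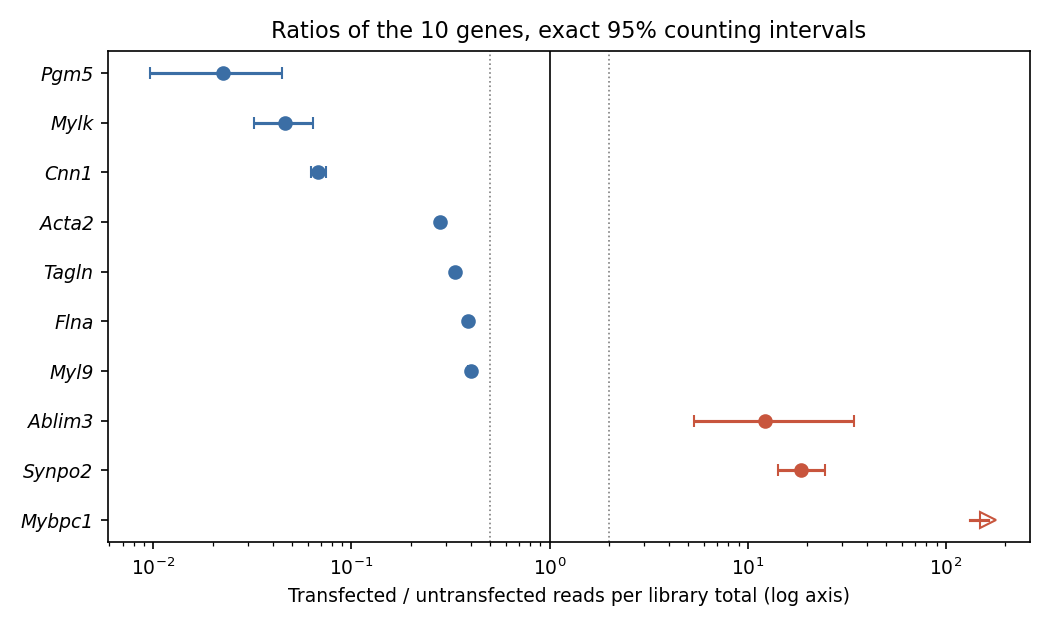
Ratio of transfected to untransfected reads per library total for each gene on a log axis, with exact 95% counting intervals; dotted lines mark 2-fold. Tagln, Acta2, Flna and Myl9 cluster between 2.49-fold and 3.58-fold lower, Cnn1, Mylk and Pgm5 lie beyond 14.7-fold lower, and the open arrow for Mybpc1 is drawn at its ratio against 3 reads (163-fold), with a line down to the exact lower limit of 132.

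**Figure D3:**
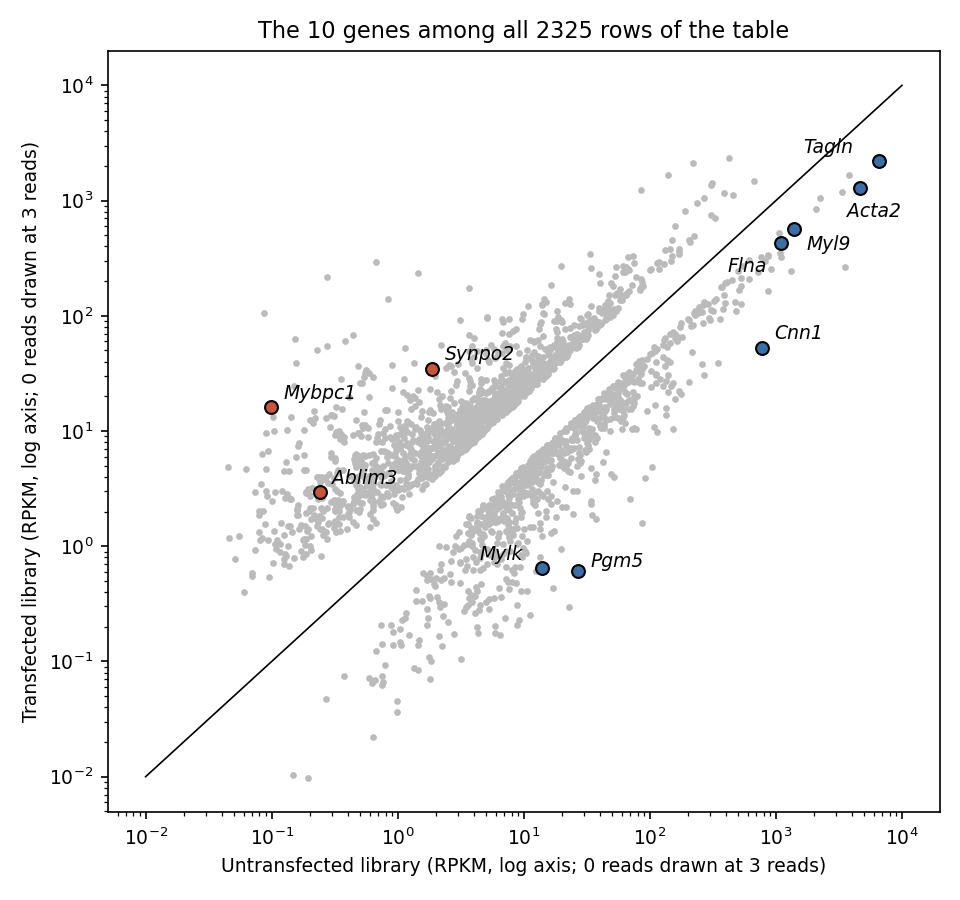
Level in the transfected against the untransfected library for all 2325 rows (grey), both in RPKM on log axes, with the 7 lower genes in blue and the 3 higher in red. The empty band along the diagonal is the 2-fold limit of the authors' selection; Tagln and Acta2 sit at the upper right end and Pgm5 and Mylk lie well below the diagonal.

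RefSeq promoter sequence (build GRCr8, used for sequence only) was found for 8 of the 10 genes. Tagln and Myl9 had no entry in the table used. The 250 bases before the annotated start were searched on both strands for 5 motifs. These were the CArG box, a looser CArG box with 1 G or C in its core of 6 bases, the MCAT element CATTCC that TEAD factors bind, the E-box CANNTG of basic helix-loop-helix factors such as Ngn3, and the homeodomain core TAAT that factors such as Pdx1 bind. A strict CArG box also meets the looser form. A match is a run of letters and not a shown binding site.

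No strict CArG box lay in the window of the 8 genes, against 1.50% of 33469 promoters, which says only that these letters are not in this window. The looser form lay in 2 of 8, Acta2 and Ablim3, against 8.08% of all promoters. Acta2 had 2 copies, CCCTATATGG from 134 to 125 and CCTTGTTTGG from 84 to 75 bases before the start. The copy in Ablim3 was CCAAAACTGG. CATTCC lay in 3 of 8, Acta2, Mylk and Flna, all of them lower genes, against 12.1%. CANNTG lay in 6 of 8 against 65.5%, with 4 copies in Mybpc1, and TAAT in 2 of 8, Acta2 and Synpo2, against 57.0%. With 8 promoters these counts describe the genes and nothing more.

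The windows of 5 genes are shown, 5′ to 3′, to set the actin gene with its elements beside 2 contractile genes with larger decreases and 2 actin-binding genes that were higher. Capitals mark the looser CArG box and CATTCC on either strand.
Acta2, GRCr8 chr1:241172504-241172753, minus strand: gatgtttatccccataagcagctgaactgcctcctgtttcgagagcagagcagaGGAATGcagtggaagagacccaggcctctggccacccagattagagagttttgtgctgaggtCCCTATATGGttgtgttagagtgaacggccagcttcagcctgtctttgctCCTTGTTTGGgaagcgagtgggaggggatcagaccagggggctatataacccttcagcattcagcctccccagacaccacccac
Mylk, GRCr8 chr11:79498575-79498824, minus strand: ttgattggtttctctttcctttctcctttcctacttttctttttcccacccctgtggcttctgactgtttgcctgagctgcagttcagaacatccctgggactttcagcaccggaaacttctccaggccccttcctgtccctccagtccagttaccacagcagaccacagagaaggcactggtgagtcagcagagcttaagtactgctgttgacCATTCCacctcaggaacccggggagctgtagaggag
Cnn1, GRCr8 chr8:28908187-28908436, plus strand: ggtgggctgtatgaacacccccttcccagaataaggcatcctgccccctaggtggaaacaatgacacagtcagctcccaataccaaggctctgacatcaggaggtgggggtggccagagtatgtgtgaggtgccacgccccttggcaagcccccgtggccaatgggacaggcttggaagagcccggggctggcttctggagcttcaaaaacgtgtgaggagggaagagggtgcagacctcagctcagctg
Synpo2, GRCr8 chr2:214055845-214056094, minus strand: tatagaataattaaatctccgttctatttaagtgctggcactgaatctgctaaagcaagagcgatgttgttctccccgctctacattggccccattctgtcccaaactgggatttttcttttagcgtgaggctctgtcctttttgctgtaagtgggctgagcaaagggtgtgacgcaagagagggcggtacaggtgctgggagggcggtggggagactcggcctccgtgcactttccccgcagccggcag
Ablim3, GRCr8 chr18:57646711-57646960, minus strand: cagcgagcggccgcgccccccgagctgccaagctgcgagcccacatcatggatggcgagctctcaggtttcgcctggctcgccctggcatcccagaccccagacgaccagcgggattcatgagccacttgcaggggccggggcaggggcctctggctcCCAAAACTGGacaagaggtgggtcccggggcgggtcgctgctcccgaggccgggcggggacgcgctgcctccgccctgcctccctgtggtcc
Acta2 holds 3 capital stretches, Mylk 1 and Ablim3 1. Cnn1 and Synpo2 hold none in this window, so a capital stretch was found in both lower and higher genes and was missing from both.

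The deposited gene annotation gives 9 of the 10 genes at least 1 ontology term. The term most often shared was cytoskeletal protein binding, held by Acta2, Cnn1, Mylk, Ablim3 and Mybpc1. Leaving out these 5, another 51 rows carry the term, and 37 of them (72.5%) were lower and 14 higher, with a median log2 ratio of -1.35. Over all rows 36.5% were lower and the median was 1.24. The term was chosen after the members' annotations were seen.

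Of 33 other genes of smooth muscle contraction, 13 were in the table, 9 lower and 4 higher, and the remaining 20 were not analysed here. The median log2 ratio of the 13 was -1.47, against 1.24 over all rows, of which 36.5% were lower. Myh9, a non-muscle myosin heavy chain, was 2.62-fold lower (866 and 331 RPKM). The tropomyosins, which lie in the groove of the actin filament, were lower as well, Tpm2 by 3.56-fold (914 and 257 RPKM) and Tpm1 by 2.03-fold (617 and 304 RPKM). Myh11, the smooth muscle myosin heavy chain, was 3.28-fold lower (137 and 41.7 RPKM).

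Lmod1, the leiomodin that nucleates smooth muscle actin filaments, was 6.37-fold lower (140 and 21.9 RPKM). It was named after its values were seen. The higher genes were Cdh13, a cadherin of vascular cells placed in this list although it is no filament protein (4.41-fold), Myl12b (2.97-fold) and, named after their values were seen, Ppp1r14a, an inhibitor of myosin phosphatase (2.94-fold), and Csrp2, a LIM protein (2.61-fold). Under median-of-ratios scaling none of these 4 passed 2-fold, and under TMM scaling 1 did.

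Among the actin isoforms, 3 of 5 were listed. Acta1, skeletal alpha-actin, was 5.38-fold lower (1322 and 246 RPKM) and Actg2, enteric smooth muscle actin, 8.87-fold lower (346 and 39.0 RPKM). Actg2 was lower than Acta2 by a further 2.48-fold (2.23 to 2.75) and Acta1 by 1.50-fold (1.44 to 1.57). Actg1, the cytoplasmic gamma-actin, was 2.43-fold higher (20.4 and 49.7 RPKM), a change that stayed above 0 but under 2-fold with TMM and median-of-ratios scaling. The caution on shared reads holds for all of them, and Actb was not analysed here.

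Close relatives of the 10 genes were mostly outside the table, with 3 of 22 listed. Myl12b, another regulatory light chain, went the other way from Myl9, at 39.5 and 117 RPKM, and the ratio of Myl9 to Myl12b levels went from 35.4 to 4.80. Mybph, a small relative of Mybpc1, had 0 and 17 reads, or 5.96-fold higher with 0 set to 3 reads (exact lower limit 4.34).

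Of 30 regulators and targets of SRF and MRTF, 8 were listed, 5 lower and 3 higher, against 36.5% lower over all rows. The median log2 ratio of the 8 was -1.39. The lower ones were abundant. Ctgf, connective tissue growth factor, was 3.03-fold lower (1071 and 353 RPKM). The LIM proteins Pdlim5 (3.31-fold), Tgfb1i1 (2.86-fold) and Pdlim7 (2.70-fold) and the actin-severing protein Dstn (2.53-fold) were lower too. The higher ones were immediate early genes at low untransfected levels. Egr1 was 6.85-fold higher (7.33 and 50.2 RPKM), and Fos (5.49-fold) and Egr3 (24.7-fold, from 2 to 47 reads, interval 6.47 to 210) were named after their values were seen. Srf, Myocd, Mkl1 and Mkl2 were not analysed here.

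Actin crosslinkers and Z-disc proteins had 13 listed of 49, 9 lower and 4 higher, against 36.5% lower over all rows. The median log2 ratio of the 13 was -1.08. Actn1, alpha-actinin 1, which bundles stress fibres, was 3.03-fold lower (506 and 167 RPKM), Lasp1 2.42-fold and Msn, moesin, a linker of actin to the membrane, 2.21-fold. Pdlim1 was 2.05-fold lower. The 4 higher genes, named after their values were seen, were Gsn, gelsolin (3.41-fold, 28.0 and 95.3 RPKM), Add3 (3.31-fold), Limch1 (8.75-fold) and Coro2b (8.57-fold). The 9 lower genes ran from 2.01-fold to 28.5-fold. The largest decreases, also named after their values were seen, were those of Xirp1 (30 and 1 reads, 28.5-fold, 4.74 to 1163) and Lcp1 (122 and 12 reads, 9.66-fold).

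Focal adhesion and dystrophin complex genes, which anchor actin to the membrane, had 18 listed of 57. Of these, 13 were lower and 5 higher, against 36.5% lower over all rows. The median log2 ratio of the 18 was -1.39. Vcl, vinculin, was 3.62-fold lower (478 and 132 RPKM) and Fermt2, kindlin 2, which activates integrins, 2.59-fold. Itgb1, the beta 1 integrin chain, was 2.04-fold lower (1057 and 519 RPKM). Dag1, dystroglycan, the membrane partner of the dystrophin complex to which Pgm5 also binds, was 2.64-fold lower. The 5 higher genes were named after their values were seen. Sdpr, a caveolar protein, had 6 and 451 reads (79.1-fold, 36.0 to 217), and Itga4, integrin alpha 4, was 13.8-fold higher (2.64 and 36.4 RPKM). Tln2 (4.95-fold), Cav3 (4.14-fold) and Itga10 (15.3-fold, from 2 to 29 reads, interval 3.86 to 132) completed them. The 13 lower genes ran from 2.04-fold to 25.7-fold. Large decreases, also named after their values were seen, were those of Itga2 (54 and 2 reads, 25.7-fold, 6.77 to 217), Itgb3 (8.30-fold) and Sgca (6.58-fold).

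Genes of actin turnover and its regulators were divided, with 7 lower and 6 higher of 13 listed from 54. Over all rows 36.5% were lower. The median log2 ratio of the 13 was -1.05. Cdc42ep1 was 4.53-fold lower and Diaph3, a formin that elongates actin filaments, 2.70-fold lower. Rnd3, a small GTPase whose activity loosens stress fibres, was 2.07-fold lower (62.5 and 30.2 RPKM). Tmsb10, a thymosin that binds actin monomers, was 2.18-fold higher (225 and 490 RPKM) and Cdc42ep5 2.09-fold higher, and both turned below 0 under median-of-ratios scaling. Rgs4, an inhibitor of G protein signals that was named after its values were seen, had 0 and 220 reads. It was 77.1-fold higher with 0 set to 3 reads (exact lower limit 62.2).

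Over the 237 distinct genes of these 7 lists, 68 were listed, 44 lower (64.7%) and 24 higher. The median log2 ratio of the 68 was -1.31, with a library at 0 reads set to 3 reads. TMM scaling and median-of-ratios scaling moved every log2 ratio by -0.78 and -1.20, and scaling by the sums of the listed counts by 0.10. The higher genes of the lists were then 15 and 12 under the former methods, while all 10 members kept their direction and their call. For the 7 lower members a downward shift could not have changed either. Over all rows the lower calls stayed at 849 while higher calls were lost. The share of lower calls thus went from 36.5% to 53.6% with TMM and 62.4% with median-of-ratios scaling, and in the lists from 64.7% to 74.6% and 78.6%.

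**Figure D4:**
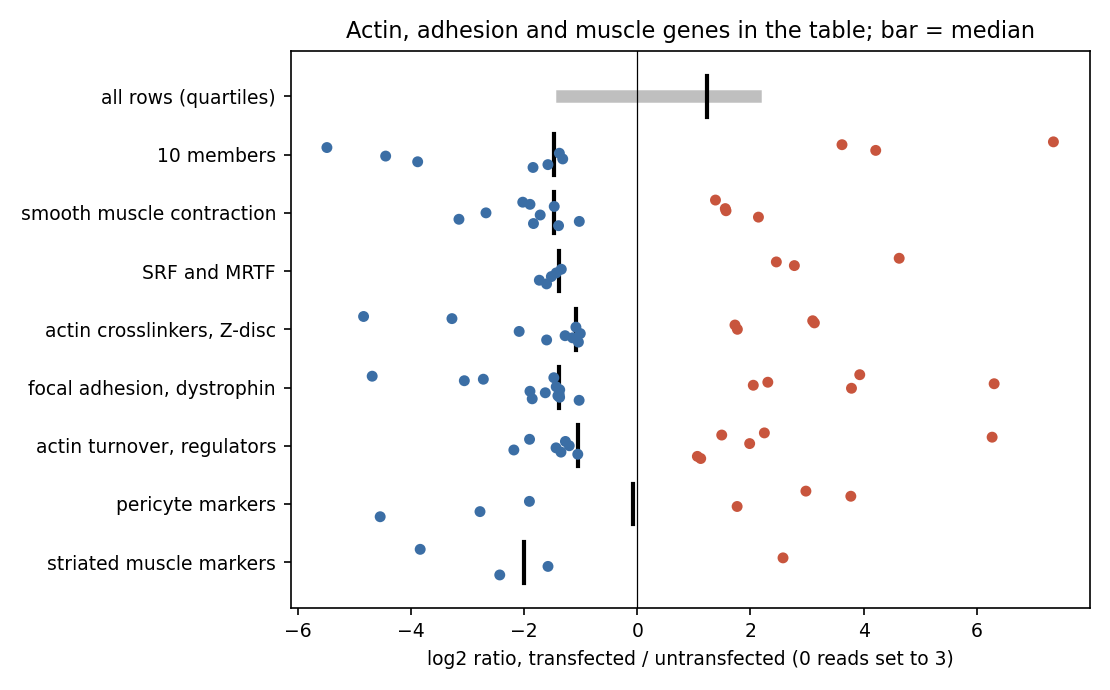
Log2 ratio (transfected over untransfected) of each listed gene in the 10 members, in 5 lists of contraction, actin and adhesion genes and in the pericyte and striated muscle markers, with red for higher and blue for lower genes and black bars for medians; the grey bar spans the quartiles of all rows. The medians of these 5 lists lie between -1.47 and -1.05, against 1.24 for all rows; the actin isoforms (median -2.43) and the relatives of the members (median 1.57) are not drawn.

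Pericytes and striated muscle cells, which share some of these proteins, were checked by their markers. Of 14 pericyte markers 6 were listed, 3 higher and 3 lower, against 36.5% lower over all rows. The summed level of the 6 was 174 RPKM in the untransfected and 37.2 RPKM in the transfected library. Cspg4, the proteoglycan NG2 (23.3-fold lower, 91.3 and 3.93 RPKM), and Mcam (6.85-fold lower, 71.5 and 10.4 RPKM) held 163 of the 174 RPKM. The higher markers were Rgs5, with 0 untransfected and 39 transfected reads, and, named after their values were seen, Cox4i2 (3.40-fold) and Notch3 (7.89-fold, from 4 to 30 reads). Of 47 striated muscle markers 4 were listed, at a summed 1329 and 249 RPKM, nearly all of it Acta1.

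Beside Mybpc1, then, the listed striated markers did not move together. Mybph was higher, at 0 and 17 reads. Casq2, the calcium-binding protein of the cardiac sarcoplasmic reticulum, was 2.98-fold lower (138 and 44 reads). The skeletal regulators Myod1 and Myog and the troponins were not analysed here. The part of pericyte or muscle cells in the results was not tested.

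With 2 libraries, likeness of pattern can only be read as closeness of the 2 levels. Distance in log2 RPKM was taken over 1525 rat genes with a symbol. The nearest genes to Tagln were Thbs1, thrombospondin 1 (distance 0.86, at 3835 and 1665 RPKM), and Acta2 (0.90). The nearest to Cnn1 were Actg2 and Tnfrsf12a, both at 1.25. Nearest to Mylk were Glb1l2 (0.19, 20.4-fold lower) and Dhrs9 (0.59), and nearest to Synpo2 were Icoslg (0.21, 15.4-fold higher) and Gbp5 (0.36).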

How the data were processed

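Poly(A) RNA was captured on oligo(dT) beads, copied from random hexamer primers and sequenced on an Illumina GA instrument, per the labels' protocols. No strand-marking step is named. The genome build was rn4, per the submitters' processing notes. Aligner and counter were not given in the sources used here. The table holds read counts per gene, deposited without scaling, and RPKM, the authors' own scaling of those counts, with 0.001 for 0 reads. It also holds the authors' deposited log2 ratio of RPKM and p-values with false discovery rates, which compare the reads of 2 libraries and were not used. It lists only genes with an absolute deposited log2 ratio of at least 1.00, and other genes were not analysed.

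Library totals were recovered from count, length and RPKM; 1 row (Actg1, untransfected) departed from them. Ratios of reads per total carry exact Clopper-Pearson intervals from the binomial share of the 2 counts, levels carry exact Poisson intervals, and a library at 0 reads was set to 3. Quotients of 2 ratios carry an exact conditional interval, or a log-scale Poisson interval where a count reaches 5000. Intervals treat amplified reads as independent molecules, which they are not. The ratio and its interval were tested on simulated Poisson counts, the same error that the intervals assume. That checks the computation and not the spread between cultures. TMM factors came from edgeR 4.0.16, and other computations used scipy 1.17.1. No test across replicates was possible.

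The members and gene lists were chosen with earlier results of these data known. The naming rule took the 10 members, up to 6 listed genes of each list by mean RPKM, and the 2 genes nearest to each of Tagln, Cnn1, Mylk and Synpo2. Genes named outside it are marked, apart from markers given as checks, and some genes that the rule or a list holds are not reported here. Alternatives were median-of-ratios, TMM and listed-sum scaling, log2(RPKM + 1) ratios, at least 30 reads, and a 3-fold limit.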

Additional observations from a re-analysis of the deposited data

How the results depend on the processing

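The 10 genes kept their direction under every alternative run, but most alternatives could not have changed it. The read filter, the 3-fold limit and log2(RPKM + 1) leave the sign as it is. Listed-sum and TMM scaling moved log2 ratios by 0.10 and -0.78, less than the authors' limit of 1.00. Median-of-ratios scaling (-1.20) could have turned higher genes only. The median log2 ratio over the 7 lower genes, -1.84 here, was -3.04 with median-of-ratios, -2.62 with TMM and -1.74 with listed-sum scaling. Over the 3 higher genes, 4.21 here, it was 3.01 with median-of-ratios scaling, 3.44 with TMM and 3.64 with log2(RPKM + 1) ratios. That median is the value of Synpo2. With log2(RPKM + 1) ratios 5 of the 10 members left their counting intervals, all toward 0. Besides Synpo2, Ablim3 went from 3.62 to 1.68 and Mybpc1 from 7.35 to 4.10. Mylk went from -4.44 to -3.19 and Pgm5 from -5.48 to -4.13. The scalings shift all genes alike and were computed on genes selected for change. Higher genes of the 7 lists of contraction, actin and adhesion genes and relatives of the members, 24 here, numbered 12 with median-of-ratios and 15 with TMM scaling. Over all rows the higher genes, 1476 here, numbered 512 and 734. A 3-fold limit left 4 of 7 lower members, 21 of 44 lower list genes, 856 higher and 445 of 849 lower rows, since fewer genes pass a larger limit. No paired analysis was possible because each condition has 1 library. Depth limits Ablim3, with 6 untransfected reads, and Pgm5, with 8 transfected reads.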

Other observations

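Direction went with level among the actin, adhesion and muscle genes. Of the 10 members and 68 list genes together, 30 were at 100 RPKM or more in untransfected cells, and 29 of these were lower in transfected cells. The exception was Tmsb10. Among the 48 genes below 100 RPKM, 22 were lower and 26 higher. Over all rows of the table, 114 of 144 at that level were lower (79.2%), and 735 of 2181 below it (33.7%). The level limit was chosen after the data were seen, no test was made, and a level that enters the ratio is not independent of it.

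Markers of other cells were mostly outside the table. Of 19 blood cell markers 3 were listed, Cd74 at 8.70 and 0.477 RPKM, Cd68 at 5 and 26 reads, and Cd4 at 0 and 23 reads. Of 13 endothelial markers Egfl7 was listed, at 3.37-fold lower. Of 17 bone, fat and cartilage markers, Lpl, lipoprotein lipase of fat cells, was 7.33-fold higher, while Acan, the cartilage proteoglycan aggrecan (2.17-fold), and Alpl, alkaline phosphatase of osteoblasts (11.7-fold), were lower. Among the mesenchymal stem cell markers, Kitlg was 11.2-fold higher (10.9 and 121 RPKM), Pdgfra 2.58-fold and Cxcl12 2.82-fold higher, and Alcam 2.78-fold lower. In all, 5 of these markers were higher and 3 lower, against 63.5% higher over all rows.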
